A study of Arabidopsis thaliana with 12 samples.

Results

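TET8 (AT2G23810) and TET9 (AT4G30430) encode tetraspanins, small proteins that cross the membrane several times and gather other proteins and lipids into microdomains. In Arabidopsis thaliana TET8 marks a class of extracellular vesicles, and both proteins collect at sites of fungal attack, where such vesicles carry small RNAs from the plant towards the fungus. Other members of the family are known for development: TET1, also called TRN2, patterns leaves and roots, and TET5 and TET6 act together to restrain organ growth. The 2 genes were taken by name from the annotation of the array, 1 probe set each, out of 13350 genes with a probe set assigned to 1 gene. They were compared with the other 13 genes on the array whose symbol is TET followed by a number. RefSeq lists 17 such genes by symbol or synonym, and TET1 and TET17 were not analysed here. TET8 and TET9 are taken to have been chosen by their measured change with chitooctaose over water in both genotypes, so that change is described below with no test.

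RNA came from whole seedlings, 14 days old, grown in liquid medium under constant light, and was measured on 12 arrays, 3 for each of 4 groups. The groups were an erf5/6 double mutant with 1 µM chitooctaose, the same mutant with water, wild type with 1 µM chitooctaose and wild type with water, each harvested 30 min after the addition. Chitooctaose is a soluble fragment of chitin, the fungal cell wall polymer, and ERF5 and ERF6 are transcription factors of the ethylene response factor family. Alleles, mutant background and the wild-type accession are not stated in the sources used here, and the labels call the arrays of a group biological replicates without saying whether they came from separate cultures, so p-values cover the spread between these arrays.

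Of the 22746 probe sets, 18680 rose above an intensity of 16 on at least 1 array and were tested. This value served as a floor: intensities were quantile normalized, those under 16 were set to 16, and log2 was taken. ERF5 and ERF6 had no probe set of 1 gene in the annotation used, and the mutant label was therefore not checked by their transcripts. Array 2 of chitooctaose-treated wild type and array 1 of water-treated wild type stood apart on principal component 2, which carried 7.42% of the variance. Several results on TET7, TET8 and TET9 are also given without these arrays. Correlations between genes are given on all arrays only. Leaf photosynthesis was represented by LHCB4.1 and RCA, between 5014 and 6456 on all arrays, and the root gene PYK10 between 3545 and 4287. The root hair gene EXPA7 lay between 71.7 and 146 and the guard cell gene FMA between 61.0 and 91.1. Measured markers of green tissue (2 of 6 listed), root (2 of 6) and guard cells (1 of 3) gave 0 calls in either response or genotype comparison with limma. Over all probe sets the called share was 8.61% and 10.1% for the responses in the mutant and in wild type, and 0.0321% and 0.0214% for genotype in water and after chitooctaose, so 0 calls among 5 markers says little. At an unadjusted p under 0.05, 1 of them was counted, FMA, whose log2 difference between mutant and wild type was 0.22 in water (adjusted p = 0.795). The FMA difference was 0.19 after chitooctaose (adjusted p = 0.787) and 0.21 averaged over treatments (unadjusted p = 0.00875, adjusted p = 0.453); its part in the results on the tetraspanins was not tested. In whole seedlings a change in the number of cells of a type and a change in RNA per cell cannot be told apart.

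TET8 was already well above the floor in water and rose about 4-fold within 30 min of chitooctaose in both genotypes. In the mutant its normalized intensity was 2827, 2873 and 2806 with chitooctaose, against 757, 704 and 778 with water. In wild type it was 2906, 2592 and 2764 with chitooctaose, against 545, 724 and 765 with water. In each genotype the lowest chitooctaose array lay far above the highest water array, and the most uneven group was water-treated wild type, where array 1 was the lowest of all 12. The change was 1.93 ± 0.11 on the log2 scale in the mutant (SE, n = 3 arrays per group), or 3.8-fold. In wild type it was 2.04 ± 0.11, or 4.1-fold. Without the 2 wild-type arrays that stood apart the wild-type change was 1.93 on the log2 scale.

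TET9 was near or under the floor in water and well above it after chitooctaose. In the mutant its intensity was 106, 121 and 85.9 with chitooctaose, against 14.6, 9.76 and 11.7 with water. All 3 mutant water arrays were thus under the floor, and the mutant rise has only a lower bound, at least 6.47-fold. In wild type its intensity was 126, 182 and 114 with chitooctaose, against 24.2, 26.6 and 14.5 with water. Here only array 3 of the water group was under the floor, and the change was 2.66 ± 0.21 on the log2 scale, or 6.33-fold. The lowest chitooctaose array of either genotype exceeded the highest water array, and without the 2 wild-type arrays that stood apart the wild-type change was 2.53. The size of the TET9 change depended on how values this low were treated: with an offset of 32 added before log2 in place of the floor it was 1.63 in the mutant and 1.67 in wild type.

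**Figure D1:**
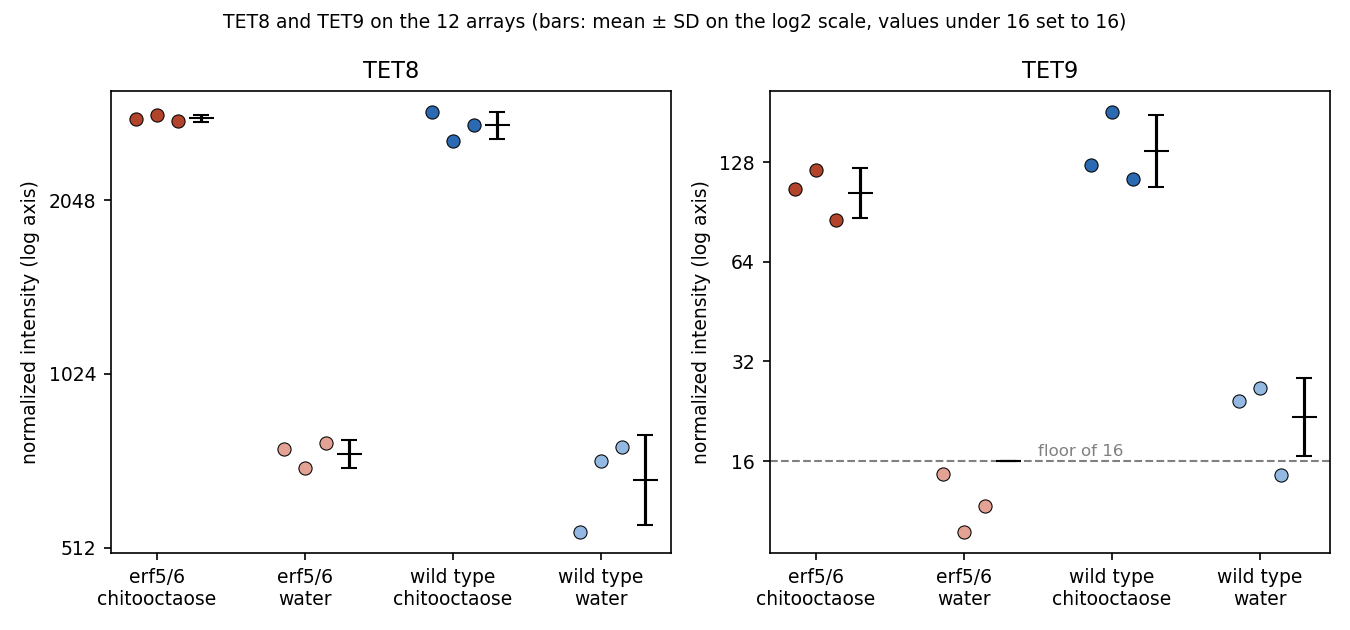
Normalized intensity of TET8 and TET9 (log axis) on each array in the 4 groups; each point is an array, and the black bars are the group mean ± SD on the log2 scale with values under 16 set to 16. The chitooctaose arrays of TET8 sit between 2592 and 2906, above water arrays between 545 and 778, and those of TET9 between 85.9 and 182, above water arrays between 9.76 and 26.6.

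Among all 18680 probe sets tested, 5.95% were called higher by limma at an adjusted p under 0.05 in the mutant and 6.06% in wild type. No call is given for TET8 and TET9, whose change was taken to have chosen them. As a description of size, 316 probe sets rose more than TET8 in the mutant (1.69%) and 271 did in wild type (1.45%). No such count is given for TET9, whose change depends on the floor.

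Both genes were highest in the 2 chitooctaose groups, but the genotypes stood in opposite order. For TET8 the group means, on the log2 scale, were 11.47 ± 0.02 in the mutant with chitooctaose and 9.54 ± 0.08 in the mutant with water, and 11.43 ± 0.08 in wild type with chitooctaose and 9.39 ± 0.26 in wild type with water (SD, n = 3 arrays each). From highest to lowest the order was thus chitooctaose-treated mutant, chitooctaose-treated wild type, water-treated mutant and water-treated wild type, and only the step between the treatments exceeded the spread. For TET9 the means were 6.69 ± 0.25 in the mutant and 7.11 ± 0.36 in wild type with chitooctaose (SD, n = 3 arrays each). With water the mutant was at the floor, below wild type at 4.44 ± 0.39. Neighbours within a treatment overlapped for TET9 too, in water only through values under the floor.

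The genotype comparisons were taken not to have been used to choose the genes, and were tested. In water, TET8 was 0.15 ± 0.11 higher in the mutant on the log2 scale (95% confidence interval -0.10 to 0.41, limma adjusted p = 0.938). After chitooctaose it differed by 0.04 ± 0.11 (interval -0.21 to 0.30, limma adjusted p = 0.983). Neither passed, and the intervals leave room for a genotype difference of up to 1.33-fold in water and 1.23-fold after chitooctaose. The mutant and wild-type arrays overlapped in both treatments after normalization. In the deposited intensities the chitooctaose arrays did not overlap, at 2913, 2847 and 2918 in the mutant against 2829, 2532 and 2685 in wild type, but the difference of 0.11 on those values was not called either (limma adjusted p = 0.797). Without the 2 wild-type arrays that stood apart the TET8 difference was 0.00 in water and 0.00 after chitooctaose.

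TET9 leaned the other way. After chitooctaose its level in the mutant was 0.41 lower on the log2 scale, at -0.41 ± 0.21 (interval -0.88 to 0.06, limma adjusted p = 0.797), and in water the difference was -0.44 ± 0.21 (interval -0.91 to 0.03, limma adjusted p = 0.832). Neither passed, and normalized arrays of the 2 genotypes overlapped in both treatments. With chitooctaose the highest mutant array, at 121, exceeded the lowest wild-type array, at 114. In water the overlap lay under the floor, with the highest mutant array at 14.6 and the lowest wild-type array at 14.5. The deposited water intensities did not overlap, at 14.1, 10.1 and 11.7 in the mutant against 24.4, 26.1 and 14.4 in wild type. On those values the difference of -0.44 was not called (limma adjusted p = 0.706). The water value rests on the floor, being 0.00 with a floor of 32 and -0.83 with a floor of 8. The mutant water group had an SD of 0 at the floor. The SEs, intervals and p-values given for TET9 may therefore be too small. Without the 2 wild-type arrays that stood apart the difference was -0.21 after chitooctaose and -0.37 in water. Few probe sets differed between the genotypes anywhere on the array: limma called 0.0321% in water and 0.0214% after chitooctaose.

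The genotype difference averaged over both treatments was added after TET9 had been seen to be lower in the mutant with chitooctaose and with water. For TET9 it was -0.43 ± 0.15 on the log2 scale, with an interval of -0.76 to -0.09; its unadjusted limma p was 0.0166 and its adjusted p over all probe sets 0.514. It lay between -0.54 and -0.33 with single arrays left out, and was -0.29 without the 2 wild-type arrays that stood apart. It was -0.62 with a floor of 8 and -0.21 with a floor of 32. At a floor of 16 the mutant water group had an SD of 0, which can make the SE, interval and p-value too small. For TET8 the averaged difference was 0.10 ± 0.08 (limma adjusted p = 0.816), and 0.00 without the 2 wild-type arrays that stood apart. Limma called 7 probe sets, or 0.0375%, for this averaged difference, none of them a tetraspanin. An unadjusted p under 0.05 was found for 1511 of the 18680 probe sets tested.

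The chitooctaose response of the mutant was then set against that of wild type, as mutant minus wild type. The responses compared are those taken to have chosen TET8 and TET9, and choosing a rise in both genotypes favours similar responses. For these genes the intervals and p-values of this difference are therefore descriptions and no independent test. For TET8 it was -0.11 ± 0.16 on the log2 scale, with an interval of -0.47 to 0.25, so that the mutant response was between 0.723 and 1.19 times that of wild type (limma adjusted p = 0.997). For TET9 it was 0.03 ± 0.30, with an interval of -0.63 to 0.70 (limma adjusted p = 0.997), and since the mutant water arrays were at the floor this value is not a measurement of the full difference. With the floor at 8 it was 0.42 and at 32 it was -0.41, neither of them called. Without the 2 wild-type arrays that stood apart the difference was 0.00 for TET8 and 0.16 for TET9. Limma called 0 probe sets (0%) for this difference over the whole array, with 859 at an unadjusted p under 0.05. Neither TET8 nor TET9 is shown to respond alike or unlike in the genotypes.

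**Figure D2:**
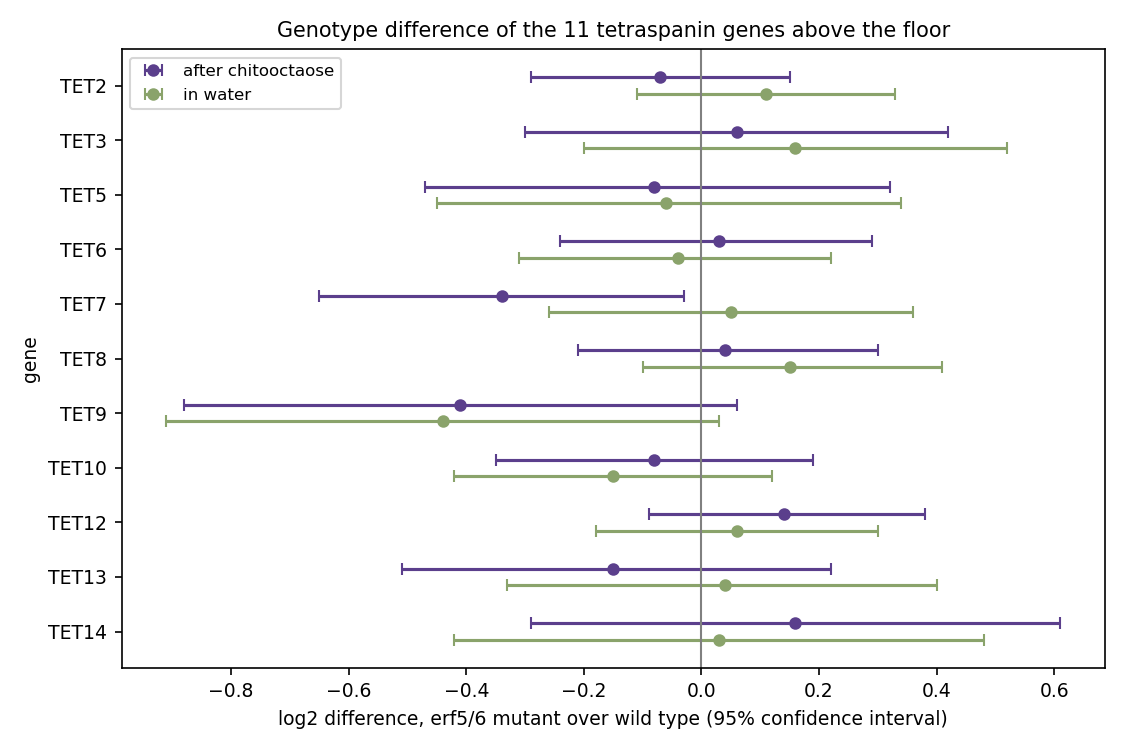
Log2 difference between the erf5/6 mutant and wild type for the 11 tetraspanin genes above the floor on at least 1 array, after chitooctaose and in water; points are limma estimates and bars 95% confidence intervals. The intervals of TET8 and TET9 include 0 in both treatments, and TET7 after chitooctaose has the only interval that does not.

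The rest of the tetraspanin family moved little. Of the other 13 genes, TET4, TET11, TET15 and TET16 were under the floor on all 12 arrays, with a highest intensity of 14.2 for TET4. TET11 is known from pollen. The remaining 9 were tested, and TET12, TET13 and TET14 among them stayed at or below 28.3 on every array. TET2, TET3, TET5, TET6, TET7 and TET10 were above the floor on all arrays. Over the 9 tested genes the median change after chitooctaose was -0.14 in the mutant and -0.07 in wild type on the log2 scale, beside -0.08 and -0.07 over all probe sets tested. In the mutant, where 8.61% of all probe sets were called in either direction, limma called none of the 9, which then lay between -0.29 (TET5) and 0.17 (TET7), with 0 at an unadjusted p under 0.05. In wild type, where 10.1% were called, 1 of the 9 was, TET7 (AT4G28050), and 2 had an unadjusted p under 0.05. Over all 18680 probe sets tested, 3817 in the mutant and 4433 in wild type had an unadjusted p under 0.05.

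TET7 was the only other tetraspanin that rose, and only modestly. In the mutant its intensity was 472, 391 and 523 with chitooctaose, against 378, 391 and 456 with water, with groups that overlapped. In wild type it was 598, 509 and 640 with chitooctaose, against 339, 400 and 445 with water, with groups that did not. The change was 0.17 ± 0.14 on the log2 scale in the mutant (limma adjusted p = 0.537) and 0.56 ± 0.14 in wild type (limma adjusted p = 0.0272), or 1.48-fold there with a 95% confidence interval of 1.19 to 1.83. The wild-type change kept its size under the alternatives better than its call. Leaving out chitooctaose array 1 gave 0.54 (adjusted p = 0.0764), chitooctaose array 3 gave 0.49 (0.103), water array 1 gave 0.46 (0.104) and water array 2 gave 0.58 (0.0665). The call was also lost without both arrays that stood apart, at 0.55 (adjusted p = 0.0584), with only the wild-type arrays in the fit, at 0.56 (0.0849), and when the filter on floor values was dropped, at 0.56 (0.0561). It was kept with array weights, at 0.61 (adjusted p = 0.00689), the replicate block, at 0.56 (0.00787), the offset, at 0.53 (0.00865), the filter on dim probe sets, at 0.56 (0.0126), and median centring, at 0.62 (0.0158). The difference between the 2 responses of TET7 was -0.39 ± 0.20 (limma adjusted p = 0.997), so a weaker rise in the mutant was not shown.

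The growth-related pair TET5 and TET6 had values below 0 in both genotypes without a call. TET6 was at 101, 82 and 84.9 with chitooctaose in the mutant, against 106, 109 and 93.5 with water. In wild type it was at 85.6, 98.1 and 79.6 with chitooctaose, against 98.4, 121 and 99.9 with water. The wild-type groups of TET6 just failed to overlap, and its change was -0.28 ± 0.12 there (limma adjusted p = 0.19) and -0.21 ± 0.12 in the mutant (0.373). The mutant groups of TET2 just failed to overlap as well. How many of all probe sets had groups that did not overlap is not given here, so a lack of overlap alone says little. TET5 had -0.29 ± 0.18 in the mutant and -0.27 ± 0.18 in wild type. TET2 had -0.14 and 0.04, TET3 -0.17 and -0.07 and TET10 -0.03 and -0.10, in the mutant and in wild type. The dim genes TET13 and TET14 lay at -0.16 and 0.02 and at 0.05 and -0.08, in the same order of genotypes. TET12, known from pollen like TET11, was above the floor on 3 of 12 arrays, all of the mutant, and reached 21.6 at most. None of the 9 was called between the genotypes in water or after chitooctaose, with 0 and 1 at an unadjusted p under 0.05. The 1 was TET7 after chitooctaose, at -0.34. Over all 18680 probe sets tested, 1130 in water and 1207 after chitooctaose had an unadjusted p under 0.05.

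**Figure D3:**
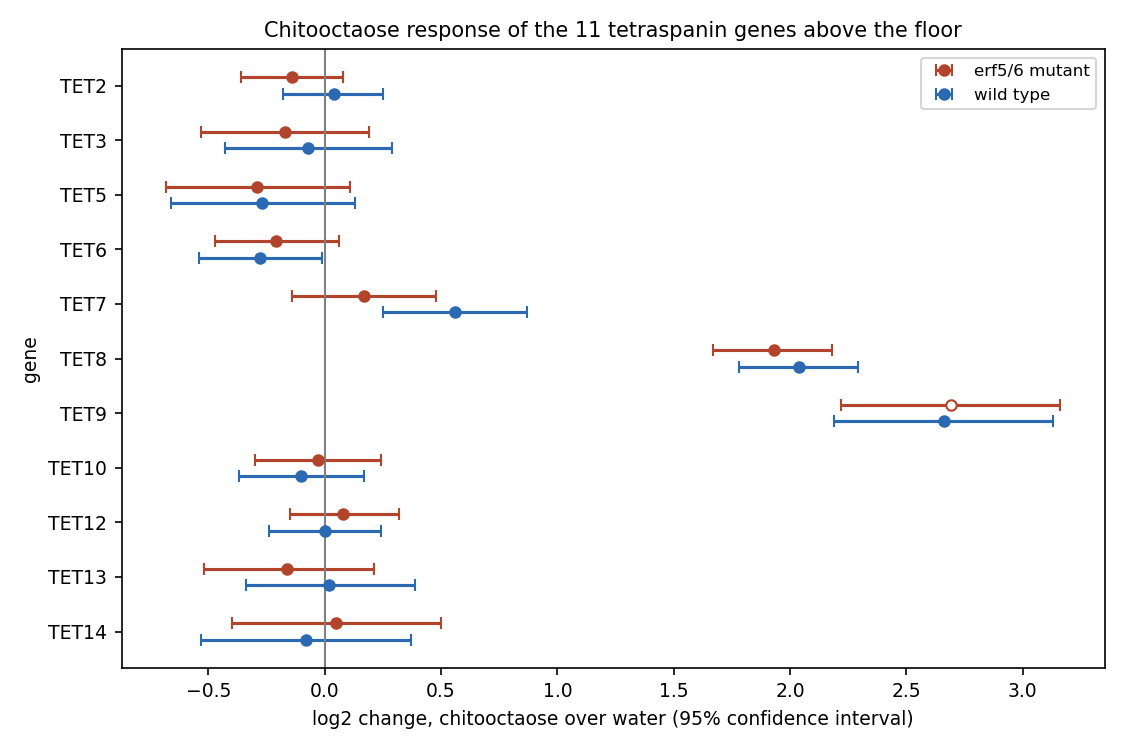
Log2 change with chitooctaose over water for the 11 tetraspanin genes above the floor on at least 1 array, in the erf5/6 mutant and in wild type; points are limma estimates, bars 95% confidence intervals, and the hollow point of TET9 in the mutant is a lower bound because its water arrays were at the floor. TET8 lies at 1.93 and 2.04 and TET9 at 2.69 and 2.66, and the other 9 reach 0.56 at most. The change drawn was taken to have chosen TET8 and TET9, so their distance from the rest follows from the choice and their bars are no test.

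**Figure D4:**
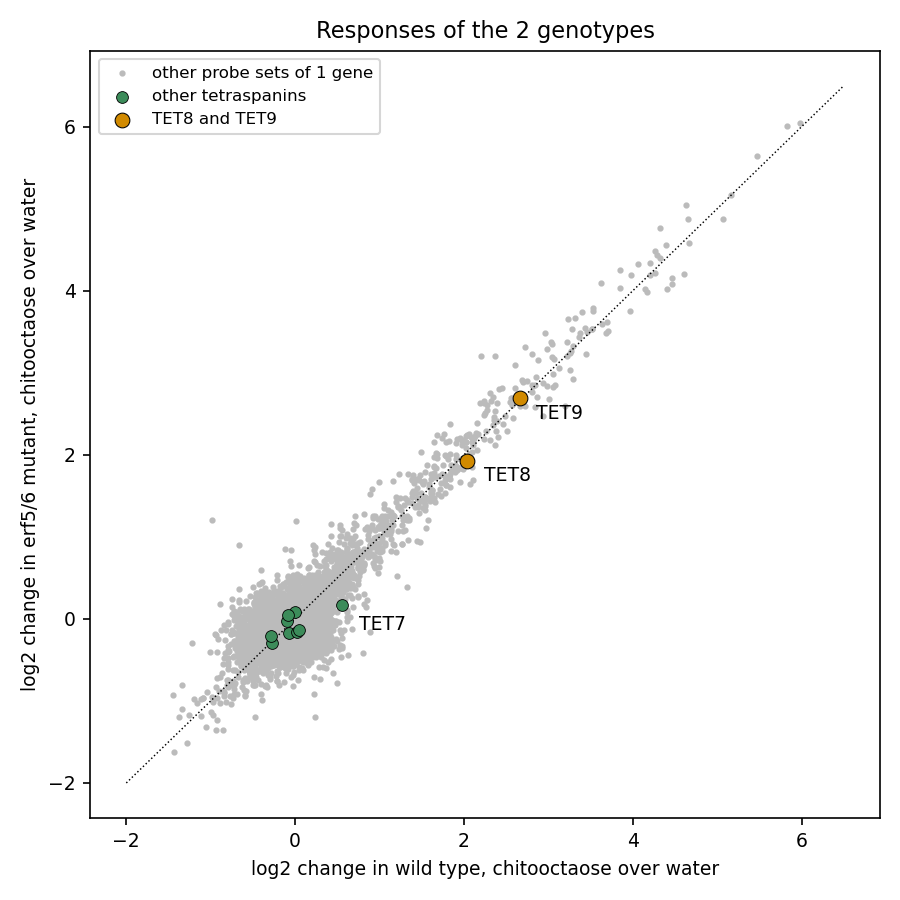
Log2 change with chitooctaose over water in the erf5/6 mutant (vertical) against wild type (horizontal) for each tested probe set of 1 gene, with the tetraspanins in colour and a dotted line where both are equal. TET8 lies at 1.93 against 2.04 and TET7 at 0.17 against 0.56; the vertical position of TET9, 2.69, is a lower bound set by the floor, so its distance from the line cannot be read.

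Genes that share a place or a partner with these tetraspanins were looked at next, as far as they had a probe set of 1 gene. Tetraspanin-rich vesicles form as internal vesicles of the multivesicular body and are released when it fuses with the plasma membrane, and TET8 binds the sphingolipids of that membrane. Of 12 listed extracellular vesicle genes 2 were measured, AT2G42520 and AT3G58510, and neither was called, at -0.21 and -0.04 in the mutant and -0.17 and 0.04 in wild type. None of the 6 listed secretory SNARE genes had a probe set of 1 gene. Of 7 multivesicular body genes 2 were measured, ARA6, which encodes an endosomal RAB GTPase, at -0.07 in the mutant and -0.09 in wild type, and AT1G15130, at -0.06 and -0.01. Neither was called. Of 17 sphingolipid synthesis genes 2 were tested without a call: LCB2, a serine palmitoyltransferase subunit gene, had -0.19 in the mutant and -0.02 in wild type, and EPC1 had 0.02 and -0.10. Over all probe sets limma called 8.61% in the mutant and 10.1% in wild type, so no call in lists of 2 tested genes says little.

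The list of membrane nanodomain genes held 2 that rose. Of its 9 loci 5 were tested, and AT5G64870 and AT1G69840 rose in both genotypes, where 5.95% of all probe sets were called higher in the mutant and 6.06% in wild type, while AT2G45820, AT3G61260 and AT5G51570 were not called; the list median was 0.00 in the mutant and -0.05 in wild type. AT5G64870 was at 137, 186 and 156 with chitooctaose in the mutant, against 22.9, 30.9 and 27.8 with water. In wild type AT5G64870 was at 188, 152 and 164 with chitooctaose, against 34.4, 32.8 and 36.7 with water. Its change, 2.55 ± 0.14 in the mutant and 2.27 ± 0.14 in wild type, passed in both (limma adjusted p = 1.65e-07 and 4.41e-07). AT1G69840 changed by 1.42 ± 0.10 in the mutant and 1.19 ± 0.10 in wild type (limma adjusted p = 2.14e-06 and 1.07e-05). In the chitin perception list 2 of 6 genes had a probe set and 1 was above the floor: the kinase gene BIK1 rose by 1.35 ± 0.14 in the mutant and 1.05 ± 0.14 in wild type (limma adjusted p = 4.49e-05 and 0.00035), beside the same shares of all probe sets. The lists were chosen with earlier results of these data known. The p-values of AT5G64870, AT1G69840 and BIK1 are therefore descriptions and no independent test. No listed gene was called between the genotypes. Limma called 0.0321% of all probe sets in water and 0.0214% after chitooctaose, so the absence of calls says little. Besides FMA and TET7, an unadjusted limma p under 0.05 was found for AT5G64870 in water (-0.36, adjusted p = 0.762). It was also found for AT2G42520 after chitooctaose (-0.20, adjusted p = 0.747).

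The genes whose profiles were most like those of TET8 and TET9 were ranked by Pearson r over the 12 arrays among 10501 other probe sets of 1 gene. For TET8 they were AT1G67880 and AT2G18210 (both r = 0.998), HEMA2 (0.997), a glutamyl-tRNA reductase gene of tetrapyrrole synthesis, AT5G66650 (0.996) and AT2G22880 (0.996). AT1G67880 rose about as much as TET8, by 1.84 in the mutant and 1.97 in wild type, HEMA2 less, by 1.45 and 1.52, and AT2G22880 more, by 5.64 and 5.47. For TET9 they were AT1G20310 and AT2G32190 (both r = 0.986), AT4G11000 (0.984), AT3G48650 (0.983) and AT2G27660 (0.982), with rises between 2.11 and 3.49 on the log2 scale. AT3G48650 was at the floor on all water arrays and AT4G11000 on all mutant water arrays. The rises of AT3G48650, and that of AT4G11000 in the mutant, therefore depend on the floor, and so do their values of r with TET9. No gene was on both lists. These values of r take in the difference between treatments as well as the spread within groups, and the 12 arrays fall into 2 treatment clusters. Of the 10501 probe sets, 322 had r over 0.95 with TET8 and 231 with TET9. After the mean of each group was taken off, r lay between 0.86 and 0.903 for the 5 genes of TET8, whose lowest array was array 1 of water-treated wild type, and between 0.568 and 0.911 for those of TET9. TET8 and TET9 had r = 0.948 with each other over the 12 arrays and -0.411 once group means were taken off.

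**Figure D5:**
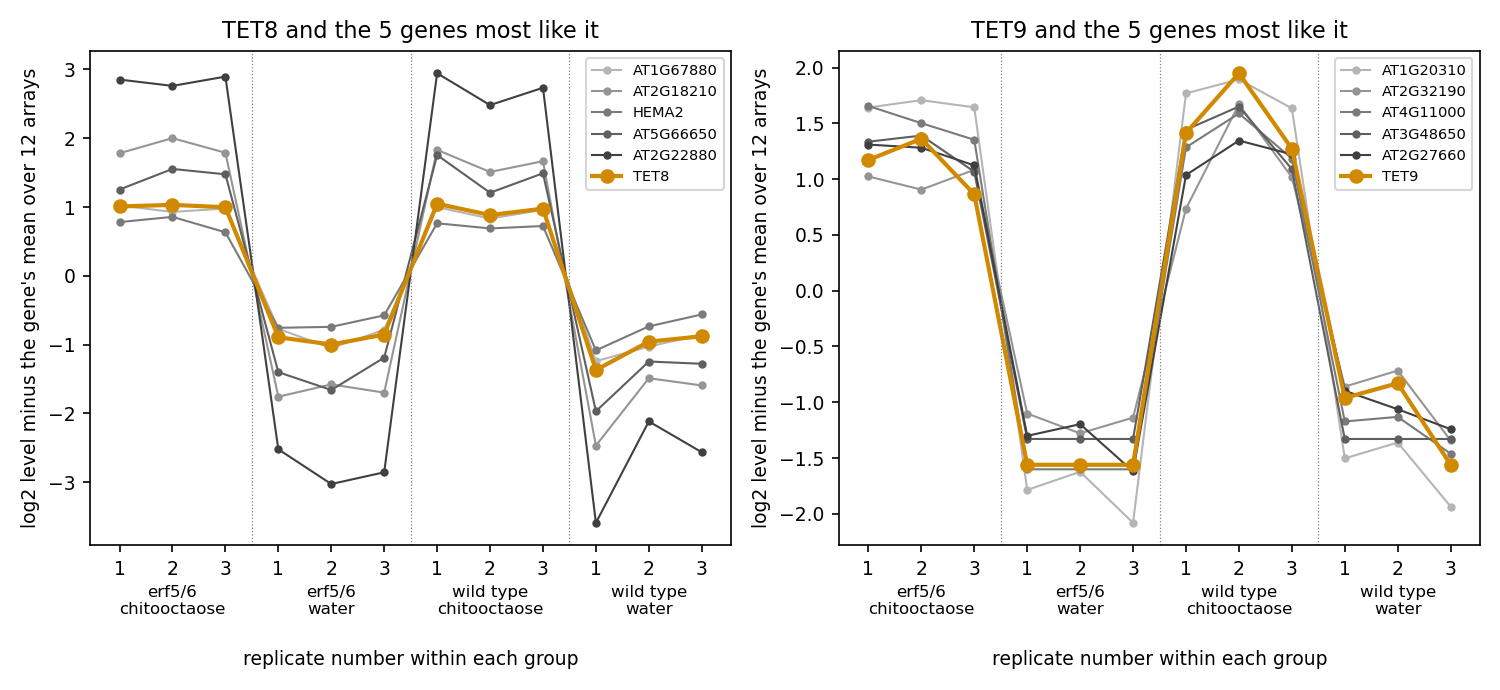
Log2 level minus each gene's mean over the 12 arrays, by group and replicate number, for TET8 (left) and TET9 (right) in orange with the 5 genes most like each in grey. All are high on the 6 chitooctaose arrays and low on the 6 water arrays. TET8 and its 5 genes dip on array 1 of water-treated wild type. TET9 and AT4G11000 are flat at the floor on the mutant water arrays, and AT3G48650 is so on all 6 water arrays.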

How the data were processed

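Per the labels' protocols, Trizol was used to extract the RNA, which was amplified from an oligo(dT) primer and labelled with biotin. The authors deposited 1 linear intensity per probe set and array, with medians between 77.0 and 83.2 per array; the sources used here do not say how they summarized, corrected and scaled them. These intensities were quantile normalized, values below 16 set to 16, and log2 taken; between 23.4% and 24.8% of the deposited values of an array were below 16. Probe sets that never exceeded the floor, 4066 in number, were not tested. Genes came from the platform annotation, updated through RefSeq (TAIR10.1): 13513 probe sets had 1 gene, 503 several and 8730 none.

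A limma model (version 3.58.1, R 4.3.3) with a mean for each group was fitted to all 12 arrays. Its two-sided p-values received Benjamini-Hochberg adjustment over all 18680 probe sets, and a call means an adjusted p under 0.05. The procedure was tested on simulated data. The members, gene lists and tests were chosen with earlier results of these data known. The text names every TET gene, all called members of the lists with up to 4 others each, and the 5 genes most like TET8 and TET9. Alternatives covered normalization, floor or offset, filters, variance moderation, array weights, arrays in the fit, the replicate number and each array left out.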

Additional observations from a re-analysis of the deposited data

How the results depend on the processing

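The rises of TET8 and TET9 kept their direction under all alternatives run, and no genotype difference of either gene passed under any. No difference between their responses passed either, but this says little, as the responses were taken to have chosen the genes. With single arrays left out, TET8 rose by 1.88 to 1.96 in the mutant and 1.88 to 2.13 in wild type on the log2 scale, and TET9 by 2.58 to 2.82 and 2.44 to 2.80. With the deposited values the TET8 rise in the mutant was 2.03, its level there with chitooctaose 2892, and the difference between its responses 0.02 (adjusted p = 0.98). TET9 depended on the floor by construction. With an offset of 32 its rise was 1.63 in the mutant and 1.67 in wild type, its level in the water-treated mutant 11.99 and the difference between responses -0.04. With a floor of 8, chosen after seeing the data like that of 32, the rise in the mutant was 3.12 and the water level there 11.87. With a floor of 32 the rises were 1.69 and 2.11, both water levels were 32 and the difference between responses -0.41. The filter on the 40% dimmest probe sets left TET9 out. With single arrays left out the difference between responses ranged from -0.20 to 0.04 for TET8, above 0 without array 1 of water-treated wild type, and from -0.11 to 0.25 for TET9; the cause was not tested.

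The count of other tetraspanins called in wild type, 1 in the report, was 0 without both arrays that stood apart, 0 with no mutant arrays in the fit and 0 when the filter on floor values was dropped; it was 0 to 1 with single arrays left out. The few probe sets called between genotypes varied. After chitooctaose they were 4, but 7 without the filter on floor values, 7 with array weights, 7 with a floor of 8 and 1 with the chitooctaose arrays alone in the fit. In water they were 6, but 1 with the water arrays alone. Averaged over treatments they were 7, but 17 with the offset, 11 with an intensity trend and robust prior, 11 with array weights and 4 to 12 with single arrays left out. For the difference between responses 1 probe set was called with the offset and 1 with a floor of 32, and 0 to 1 with single arrays left out. None of the 5 genes most like TET8, and none of those most like TET9 (0 in each case), was among the 5 most like it once group means were taken off.

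The replicate numbers share no stated batch. Of 18 same-numbered pairs, 6 had a correlation of their deviations above 0.1, and of 36 other-numbered pairs 8 did. The median was 0.0463 for the same-numbered pairs, which ran from -0.265 to 0.427, and -0.0178 for the others. With their own number 5 of 12 arrays correlated best. With the replicate number as a block, the genotype difference of TET9 was -0.44 in water and -0.41 after chitooctaose (adjusted p = 0.682 and 0.652), and no call on a tetraspanin changed. The 3 arrays per group limit precision: the median 95% interval reached 0.275 to each side for a difference between groups and 0.389 for one between responses.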

Other observations

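The gene most like TET8 after group means were taken off was AT5G18460 (r = 0.947), which changed by -0.32 in the mutant and -0.19 in wild type with chitooctaose. AT3G25600, also among those 5 (r = 0.927), rose with TET8 as well, by 2.23 in the mutant and 2.13 in wild type. For TET9 the highest was AT4G01090 (r = 0.954), which rose by 1.40 and 1.05. These values come from 12 deviations in 4 groups and are descriptions only.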
